A study of Mus musculus with 2 samples.

Results

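Cluster 14 of the wounded cornea was a group of 354 cells that the study's own clustering had set apart, out of 12417 cells from wounded (W) corneas and 28867 cells in all. Its members were the W cells that carry the cluster number 14 in the deposited table of cells, so they were chosen by the authors' clustering and not by the level of any single gene. The cluster had been proposed as wound monocytes and macrophages (Monos and Macs) with *Fcgr1*, *Itgam* and *Lyz2* as its markers. The data went against that name in part, as described below, and the cluster is therefore called by its number.

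The study sequenced single cells of mouse corneas on the 10x Genomics droplet platform, in which each captured RNA molecule carries a unique molecular identifier (UMI). It made 1 library from unwounded (UW) corneas and 1 from W corneas, each pooling the dissociated cells of 4 mice. The mice were males of 6 to 8 weeks, and their strain was not found in the sources used here. The W corneas were taken 24 h after the central epithelium had been scraped off within a circle of 2.5 mm, under pentobarbital and topical procaine, and the wound was treated with the antibiotic ofloxacin. The epithelium was split off with dispase and digested with trypsin, and the rest of the cornea was digested with collagenase, so both layers entered 1 pool. The mice pooled in a library are not told apart in the table of cells used here, so with 1 library per condition there is no spread between replicates to test against, and each interval covers counting error only. Since the genes compared here also formed the clusters, every difference between clusters is a description.

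Monocytes enter a wound from the blood and turn into macrophages there, which take up debris and release cytokines and growth factors. Macrophages that live in a tissue are known for complement C1q, and dendritic and Langerhans cells for major histocompatibility complex (MHC) class II molecules, on which they show peptides to T cells. The cornea holds few of these cells before injury, which makes the kinds of cell that appear after a scrape of interest.

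The share of cluster 14 was 2.85% of W cells (exact Clopper-Pearson 95% interval 2.57 to 3.16). In UW it held 7 of 16450 cells, or 0.0426% (0.0171 to 0.0877). These 7 cells had between 786 and 1664 UMIs each and 7697 UMIs in all, with 7 UMIs of *C1qa* and 105 of *Apoe*, and none of *Arg1* or *Osm*. They were too shallow for a comparison of genes between UW and W within the cluster. The libraries shared 52 cell barcodes, of which 3 belonged to W cells of cluster 14. The W cells of cluster 14 had a median of 8724 UMIs, with a range of 1026 to 55283, and a median of 2560 genes. They summed to 3685093 UMIs. Cluster 13 of W, which was highest for the neutrophil gene *S100a9*, had 710 cells and a median of 2510 UMIs. Cluster 15, highest for *Lyz2*, had 251 cells and a median of 10144 UMIs, and cluster 16, highest for the T cell gene *Cd3g*, had 215 cells and a median of 4411 UMIs.

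Levels are given as counts per 1000000 (CPM), meaning the UMIs of a gene summed over the cells of a cluster scaled to a total of 1000000, with an exact Poisson 95% interval where one is printed. Higher and lower below mean a log2 ratio of CPM past 1 in either direction wherever genes are counted. *Fcgr1*, an Fc receptor that binds antibody and marks monocytes and macrophages, stood at 159 CPM in cluster 14 (146 to 172) and at 648 CPM in cluster 15 (618 to 679), against 8.72 CPM in cluster 13 and 0.962 CPM in cluster 16. *Itgam*, the CD11b integrin of myeloid cells, stood at 144 CPM in cluster 14, 158 in cluster 13, 432 in cluster 15 and 1.92 in cluster 16. *Lyz2*, the lysozyme of myeloid cells, stood at 5930 CPM in cluster 14, 1073 in cluster 13, 18605 in cluster 15 and 40.4 in cluster 16. All 3 markers were thus above the T cell cluster and below cluster 15, and *Itgam* was close to the neutrophil cluster. The log2 ratio of CPM of cluster 14 over cluster 15 was -2.03 for *Fcgr1* (95% interval -2.17 to -1.89), -1.59 for *Itgam* (-1.74 to -1.44) and -1.65 for *Lyz2* (-1.67 to -1.63). *Lyz2* reads may be shared with its near copy *Lyz1*, which stood at 20.6 CPM in cluster 14 and 132 CPM in cluster 15.

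Because deeper cells show a gene more often, shares of cells with a UMI were taken after each cell had been thinned at random to 2000 UMIs, which left 296 cells of cluster 14, 584 of 13, 251 of 15 and 205 of 16. An *Fcgr1* UMI was found in 25.7% of thinned cells of cluster 14 (20.8 to 31.0) and in 64.1% of cluster 15 (57.9 to 70.1), against 1.37% in cluster 13 and 0 of 205 cells in cluster 16, which allows a share of up to 1.46% (here and below, the limit for a count of 0 is that of 3 cells). Without thinning, 54.0% of the cells of cluster 14 had one. All 3 markers together were seen in 26 of the 296 thinned cells of cluster 14 and in 79 of 251 of cluster 15, and none of the 3 in 50 and 0 cells. *Lyz2* alone was seen in 78.4% of cluster 14 and in 8.78% of the T cell cluster, a cell type that should lack it, where free RNA in the droplets can give a UMI.

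Of 12 genes for monocyte and macrophage identity, 0 were at least 2-fold higher in cluster 14 than in cluster 15 and 7 were at least 2-fold lower, with a median log2 ratio of -1.14. Among all 7715 genes with a mean of at least 10 CPM over the 4 clusters, 9.8% were at least 2-fold higher in cluster 14 than in cluster 15 and 4.29% at least 2-fold lower, with a median log2 ratio of -0.02. *Csf1r*, the receptor for the growth factor that keeps macrophages alive, was at 115 CPM in cluster 14 and 218 in cluster 15, and *Adgre1*, which encodes the macrophage surface protein F4/80, at 83.9 and 293 CPM. Against the T cell cluster, 11 of the 12 genes were higher in cluster 14 and 1, *Ptprc* (CD45, carried by all leukocytes), was lower, where 14.5% of all genes tested were higher and 14.1% lower. Against the neutrophil cluster 6 were higher and 2 lower, where 16.9% of all genes tested were higher and 8.41% lower. These backgrounds depended on the scaling. Of the genes past 2-fold, 66.7% were higher than in cluster 13, against 59.0% with TMM factors and 47.9% with DESeq2 size factors, and 50.8% were higher than in cluster 16, against 72.7% and 62.7%. Against cluster 15 the values were 69.5%, 68.7% and 62.0%.

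Cluster 14 was highest of the 4 clusters for MHC class II and the genes that serve it. Of 11 genes of MHC class II and co-stimulation, 8 were higher than in cluster 15 and 0 lower (median log2 ratio 1.99), and against clusters 13 and 16 the counts were 10 higher with 1 lower, and 11 higher. The shares higher over all genes tested were 9.8% (cluster 15), 16.9% (13) and 14.5% (16). *H2-Aa* stood at 4219 CPM in cluster 14 (4153 to 4285), 34.3 in cluster 13, 1059 in cluster 15 and 15.4 in cluster 16. *Cd74*, the invariant chain that guides class II molecules, stood at 10161 CPM in cluster 14, 273 in 13, 3613 in 15 and 85.6 in 16. *Ciita*, the coactivator on which transcription of these genes depends, was at 36.4 CPM against 7.01 in cluster 15, a log2 ratio of 2.37 (1.68 to 3.15). *H2-DMa* and *H2-DMb1*, whose products load peptide, had log2 ratios of 1.68 and 2.03 over cluster 15, with the limit that *H2-DMb1* and *H2-DMb2* are near copies whose reads may be shared. The co-stimulatory genes *Cd80*, *Cd86* and *Cd40* lay within 2-fold of cluster 15, with log2 ratios of -0.03, -0.36 and -0.25.

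Class II genes are known for a shared promoter with an X and a Y box. Of the 11 genes, 6 (*H2-Aa*, *H2-Eb1*, *H2-DMa*, *H2-DMb1*, *H2-DMb2* and *Cd80*) were found in a RefSeq table of promoters (GRCm38.p6, from 250 bases before to 50 after each start). For 4 of them a stretch of 100 bases is shown. They were picked because the stretch holds GATTGG (the letters of the Y box), which is in capitals, as is CTAGCAAC (the letters of the X box in *H2-Eb1*), both on the printed strand only. They lie on chromosome 17, at chr17:34287844-34287943 on the minus strand for *H2-Aa*, chr17:34305747-34305846 on the plus strand for *H2-Eb1*, chr17:34153071-34153170 on the plus strand for *H2-DMb1* and chr17:34145129-34145228 on the plus strand for *H2-DMb2*, each written 5′ to 3′ in the direction of the gene.
H2-Aa: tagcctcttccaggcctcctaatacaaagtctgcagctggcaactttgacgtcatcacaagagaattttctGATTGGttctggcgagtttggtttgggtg
H2-Eb1: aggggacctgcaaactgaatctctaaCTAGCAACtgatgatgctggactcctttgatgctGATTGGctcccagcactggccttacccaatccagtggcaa
H2-DMb1: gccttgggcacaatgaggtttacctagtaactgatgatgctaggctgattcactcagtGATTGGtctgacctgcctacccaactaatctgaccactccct
H2-DMb2: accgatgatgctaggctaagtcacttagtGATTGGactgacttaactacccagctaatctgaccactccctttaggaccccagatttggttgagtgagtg

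GATTGG starts at position -49 in *H2-Aa*, -60 in *H2-Eb1*, -62 in *H2-DMb1* and -91 in *H2-DMb2*, counted from the start of the transcript. Of all 32851 promoters in the table, 16.1% held GATTGG and 1.32% held CTAGCAAC on either strand, and the letters searched do not overlap. *H2-Eb1* held GATTGG on the other strand as well. *H2-DMa*, which was higher too, has 2 entries, of which 1 held GATTGG, at -199, and neither held it in the stretch of 100 bases. The entry of *Cd80* held neither motif. These matches are letters in a window and say nothing of which factor was bound.

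**Figure D1:**
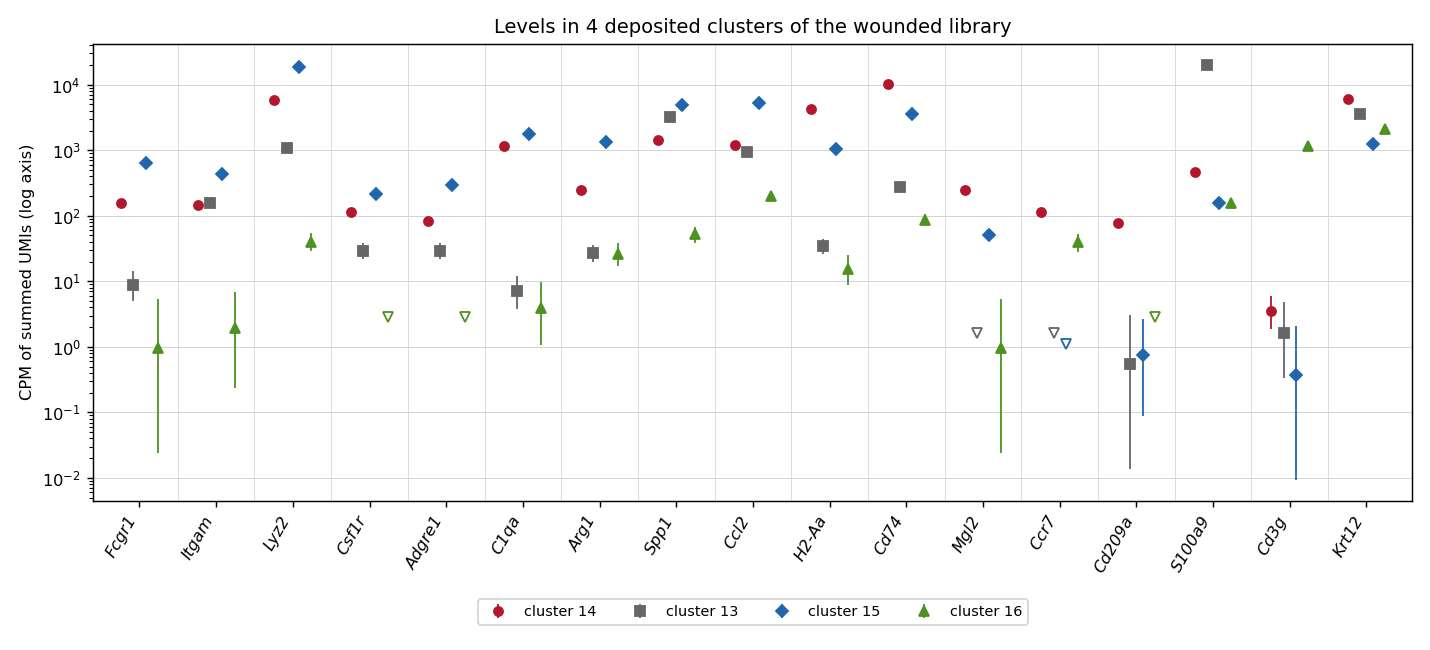
Level of 17 genes in CPM on a log axis, for clusters 14, 13, 15 and 16 of the W library. Filled points are CPM of summed UMIs with exact Poisson 95% intervals, and an open triangle marks a sum of 0 at the level that 3 counts would give. The macrophage genes on the left are higher in cluster 15 than in cluster 14 (*Fcgr1* at 648 and 159 CPM), and *H2-Aa*, *Cd74*, *Mgl2*, *Ccr7* and *Cd209a* are highest in cluster 14.

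The 10 genes with the largest ratio over the highest of the other 3 clusters, among those with at least 100 CPM, were *Zmynd15*, *Mgl2*, *H2-Ab1*, *Lmo7*, *H2-DMb1*, *H2-Eb1*, *H2-Aa*, *Napsa*, *H2-DMa* and *Prdm1*. *Mgl2*, a sugar-binding receptor of dermal dendritic cells and some macrophages, stood at 250 CPM against 51.3 in cluster 15, 0.962 in cluster 16 and 0 UMIs in cluster 13, and its log2 ratio over cluster 15 was 2.28 (2.03 to 2.55). *Napsa*, an aspartic protease, stood at 207 CPM in cluster 14, 63.7 in cluster 13 and 50.2 in cluster 15. *Zmynd15* had the largest ratio, at 113 CPM against 19.2 in cluster 15 (log2 ratio 2.56). *Lmo7* and *Prdm1* belong to another pattern, since they were at 720 and 374 CPM in the cells rich in epithelial RNA described below.

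Several defining genes of dendritic cells were present in cluster 14 and at or near 0 in clusters 13 and 15. In a separate clustering of immune cells, the study named dendritic cells by *Flt3* and Langerhans cells by *Cd207*, apart from its Monos and Macs. *Cd209a*, a lectin of monocyte-related dendritic cells, stood at 77.1 CPM (284 UMIs), with 2 UMIs in cluster 15, a log2 ratio of 6.71 (4.84 to 9.76). *Ccr7*, the chemokine receptor by which dendritic cells leave for lymph nodes, had 423 UMIs in cluster 14 (115 CPM) and 0 in clusters 13 and 15, so it was at least 6.70 higher on the log2 scale than in cluster 15, and it stood at 39.5 CPM in the T cell cluster. Its UMIs came from 33 of the 354 cells. *Flt3*, the receptor for the growth factor of dendritic cells, was at 21.4 CPM and *Cd207*, the langerin of Langerhans cells, at 19.0 CPM, while *Xcr1* and *Clec9a* of cross-presenting dendritic cells were at 4.61 and 7.87 CPM. Of 12 dendritic and Langerhans cell markers, 5 passed the filter on low values. *Fscn1*, an actin-bundling protein of mature dendritic cells, stood at 40.4 CPM, 16.9 in cluster 13 and 8.86 in cluster 15. *Epcam*, which Langerhans cells share with epithelium, stood at 60.5 CPM, 68.1 in cluster 13 and 19.2 in cluster 15. *Itgax* (CD11c) was at 39.9 CPM against 5.53 in cluster 15. *Klrd1*, a receptor of natural killer cells, was at 89.8 CPM in cluster 14 and 87.6 in the T cell cluster, with 0 UMIs in cluster 13 and 0.369 CPM in cluster 15. The T cell genes *Cd3d*, *Cd3e* and *Cd3g* were at 1.36, 0.271 and 3.53 CPM in cluster 14, and *Nkg7* of cytotoxic cells at 0 UMIs. The T and NK cell markers that passed the filter did so almost wholly through the T cell cluster, so no count is given. They summed to 103 CPM in cluster 14, most of it *Klrd1*, and to 4833 CPM in cluster 16.

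Of 12 genes of recently arrived monocytes, 0 were higher than in cluster 15 and 6 lower (median log2 ratio -1.03), where 9.8% and 4.29% of all genes tested were. *Ly6c2*, a surface protein of monocytes fresh from the blood, stood at 185 CPM against 578. *Ccr2*, the receptor that draws monocytes to sites of *Ccl2*, stood at 111 and 170 CPM, a log2 ratio of -0.62. *F13a1* and *Ms4a4c* had log2 ratios of -2.36 and -1.22. *Plac8* and *Chil3* were close to cluster 15, with log2 ratios of 0.19 and -0.04.

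Of 15 genes of resident macrophages, 12 passed the filter, of which 0 were higher than in cluster 15 and 6 lower (median log2 ratio -1.05), against the same 9.8% and 4.29%. *C1qa*, *C1qb* and *C1qc*, the 3 chains of C1q, stood at 1145, 949 and 703 CPM in cluster 14 and 1740, 1666 and 1122 CPM in cluster 15, and at or below 7.08 CPM in clusters 13 and 16. *Mrc1*, the mannose receptor, stood at 52.1 and 201 CPM, and *Folr2* at 5.97 and 63.8 CPM. *Fcrls*, one of the genes by which the study divided its Monos and Macs, stood at 10.9 and 46.5 CPM. *Cx3cr1*, the fractalkine receptor, was level between both clusters, at 38.5 and 38.4 CPM.

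Of 20 chemokine genes tested, 4 were higher in cluster 14 than in cluster 15 and 11 lower (median log2 ratio -1.29), beside 9.8% and 4.29% of all genes tested. *Ccl2*, *Ccl7*, *Ccl8* and *Ccl12*, which attract monocytes, had log2 ratios of -2.11, -2.32, -3.28 and -2.42. *Pf4*, a chemokine of platelets and macrophages, stood at 450 and 3237 CPM. The 4 higher genes were *Ccl17*, *Ccl22*, *Ccl24* and *Cxcl5*. *Ccl17* and *Ccl22*, which attract T cells through CCR4, stood at 75.2 and 40.2 CPM in cluster 14. Cluster 15 held 0 UMIs of either, and with that 0 set to 3 counts the log2 ratios were 6.09 and 5.18. Their levels in cluster 14 alone sufficed for the filter on low values, so nothing is read from the count of 4 higher genes. *Cxcl16* and *Ccl5* were within 2-fold, with log2 ratios of 0.17 and -0.07.

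Among 16 growth factors and repair ligands, 13 passed the filter, of which 2 were higher than in cluster 15 and 4 lower. The share higher is near the 9.8% of all genes tested, of which 4.29% were lower. *Spp1* (osteopontin) stood at 1415 CPM in cluster 14, 3178 in cluster 13 and 4928 in cluster 15. *Thbs1* (thrombospondin 1) had a log2 ratio of -1.48 over cluster 15 and *Grn* (progranulin) one of -1.36. *Osm*, the cytokine oncostatin M that the study followed in wound healing, stood at 39.3 CPM in cluster 14, 133 in cluster 13, 105 in cluster 15 and 7.70 in cluster 16. Its log2 ratio over cluster 15 was -1.42 (-1.72 to -1.12), but -0.60 with every cell thinned to 2000 UMIs, which is under 2-fold. An *Osm* UMI was found in 11.5% of thinned cells (8.09 to 15.7) against 17.1% in cluster 15 (12.7 to 22.4), so the intervals of the shares overlapped. The 2 higher genes were *Areg* and *Hbegf*, ligands of the epidermal growth factor receptor, at 366 and 177 CPM against 94.8 and 53.9. Without the cells rich in epithelial RNA, described below, their log2 ratios fell from 1.95 and 1.71 to 0.10 and 0.26.

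Of 11 inflammatory cytokine genes tested, 2 were higher than in cluster 15 and 2 lower (*Il1r2* and *Csf1* against *Il1rn* and *Ptgs2*), beside 9.8% and 4.29% of all genes tested. *Il1b* stood at 749 and 665 CPM and *Tnf* at 119 and 211 CPM. The decoy receptor *Il1r2* stood at 124 CPM against 12.2, a log2 ratio of 3.35 (2.84 to 3.91), and at 807 CPM in cluster 13. *Il12b*, a subunit of interleukins 12 and 23, was at 13.3 CPM in cluster 14 and at 0 UMIs in the other 3 clusters. *Il1rn*, the receptor antagonist, and *Ptgs2*, the cyclooxygenase of prostaglandin synthesis, had log2 ratios of -1.09 and -1.35.

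Among genes of uptake and digestion, more were lower than higher against cluster 15. Of 10 Fc and complement receptors 1 was higher and 7 lower, of 14 pattern recognition receptors 0 and 8, of 11 genes of dead cell uptake and scavenging 1 and 6, and of 19 lysosomal genes 0 and 9. *C5ar1* and *C3ar1*, the receptors for complement fragments, had log2 ratios of -1.65 and -1.77, the lectin *Clec4d* -1.49, the scavenger receptor *Msr1* -2.01, and cathepsin B (*Ctsb*) -1.59. Cathepsin S (*Ctss*), which trims the invariant chain, stood nearer, at 1148 and 1554 CPM. In the lists of glycolysis and hypoxia, iron and haem, and matrix enzymes, 1 of 20, 0 of 7 and 0 of 12 genes were higher and 5, 3 and 3 lower. *Hmox1*, which breaks down haem, stood at 142 and 581 CPM, and *Bnip3* at 28.2 and 113 CPM. Of 13 interferon response genes 0 were higher and 1 lower (*Irf7*, log2 ratio -1.35). Of 18 transcription factors 2 were higher and 2 lower. *Irf4* and *Bhlhe40* were higher (log2 ratios of 3.14, with 3 UMIs in cluster 15 and an interval of 1.48 to 5.49, and 1.03), *Maf* was lower (-1.92), and *Irf8*, a factor of monocytes and dendritic cells, stood at 193 and 130 CPM. Of 10 cell division genes 1 was higher, *Cdk1*, with a log2 ratio of 1.12 (0.36 to 1.93). Of all genes tested 9.8% were higher and 4.29% lower, so the counts higher for transcription factors and cell division are near the background.

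RNA of other cell types was present in cluster 14. The 8 corneal epithelium markers were all higher than in cluster 15, where 9.8% of all genes tested were higher and 4.29% lower. *Krt12*, the keratin of the corneal epithelium, stood at 6048 CPM in cluster 14, 3584 in 13, 1247 in 15 and 2106 in 16. Its log2 ratio over cluster 15 was 2.28, and fell to 0.28 in the lowest of the alternatives described at the end. A *Krt12* UMI was present in every one of the 354 cells, and the 8 markers took a median of 0.625% of a cell's UMIs, between 0.191% and 10.1%. In the other clusters the medians were 1.46% (cluster 13), 0.457% (15) and 0.882% (16). In 39 cells of cluster 14 (exact interval of the share 7.95 to 14.8%) the markers took 3% or more, against 12 of 710 cells of cluster 13, 1 of 251 of cluster 15 and 1 of 215 of cluster 16. Of these 39 cells, 28 had 11530 UMIs or more, and the other 11 had at most 1518. Together they held 19.9% of the UMIs of the cluster. The deposited doublet calls named 0 cells of cluster 14 as doublets. The neutrophil markers that passed the filter did so in most cases through cluster 13, so no count is given. *S100a9* and *G0s2* were higher than in cluster 15, as were *Cxcr2* and *Camp* on 10 and 11 UMIs, and *Mmp8* was lower. *Retnlg* had 1 UMI in cluster 14 and 0 in cluster 15. Together the neutrophil markers summed to 860 CPM in cluster 14 and 469 in cluster 15. The 6 stroma and vessel markers lay within 2-fold of cluster 15, and the mast cell genes *Cpa3*, *Mcpt4* and *Tpsb2* were at 0 UMIs in both.

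Myeloid RNA was spread unevenly over these 39 cells. Of their 1635 UMIs of *Lyz2* (2229 CPM), 6 cells held 1410, and the median cell held 3. *Fcer1g*, a signalling chain of myeloid receptors, stood at 649 CPM in them, against 1981 in the whole cluster and 108 in the T cell cluster. They held 1430 CPM of *Areg* and 628 of *Hbegf*, against 65.0 and 25.7 CPM in the MHC II-high cells described next. They also held 1591 CPM of *S100a9*, which stood at 462 CPM in the cluster as a whole. Without these cells, 471 genes in place of 756 were at least 2-fold higher than in cluster 15, and the genes highest over cluster 15 are to be read beside that, since *Clic3*, *Krt6b*, *Nccrp1*, *Sprr1a*, *Slurp1* and *Mal* among the leading 10 stood at 555 to 7038 CPM in these 39 cells and at 16.6 to 239 CPM in cells high for MHC class II. *Ccr7* and *Il1r2*, the leading 2, were at 36.8 and 53.2 CPM in the 39 cells. What kind of cell these were was not tested, nor whether they took up epithelial RNA, were caught with an epithelial cell or held free RNA.

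**Figure D2:**
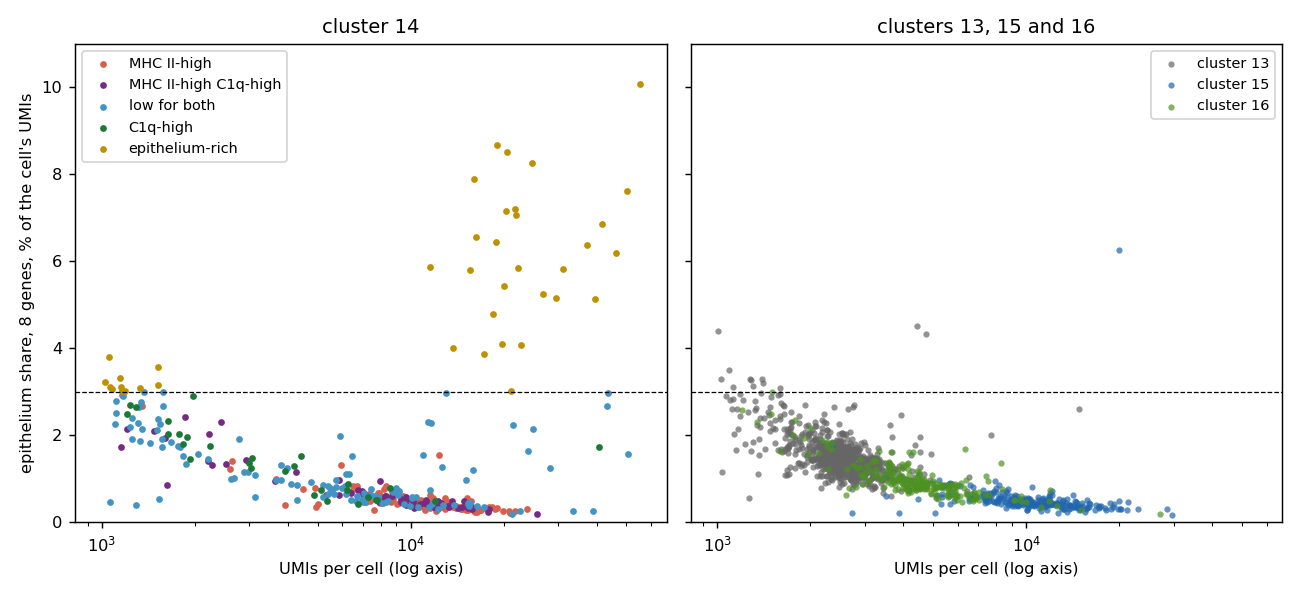
Share of the 8 corneal epithelium markers among a cell's UMIs (percent) against the UMIs of the cell on a log axis, for cluster 14 (left, coloured by range) and clusters 13, 15 and 16 (right). The dashed line marks 3%, and 28 cells of cluster 14 lie above it at 11530 UMIs or more, with 11 further cells above it at low depth.

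Cells within cluster 14 differed widely in MHC class II. In the first principal component of the 296 thinned cells, over 2659 genes, *Cd74*, *H2-Eb1*, *H2-Aa* and *H2-Ab1* led 1 end, followed by *Cst3*, *H2-DMb1*, *H2-DMa*, *Crip1*, *Gm2a* and *Laptm5*. The other end held the chemokines *Cxcl2* and *Ccl2* with epithelial genes such as *Krt12* and *Aqp5* and the early response genes *Jun* and *Dusp1*. This component took 4.71% of the variance. The genes with the largest variance over mean were *Apoe*, *Cxcl13*, *Fth1*, *Ccl5*, *Ccl4*, *Lyz2*, *Krt12*, *Malat1*, *Cxcl2* and *S100a9*. *Apoe*, which carries lipids, varied most, with a mean of 6.79 UMIs and a highest value of 181 UMIs per thinned cell. For *Cxcl13*, a chemokine for B cells, all 211 UMIs of the cluster came from 1 cell.

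To describe this spread, the cells were divided by 2 borders, chosen after the values were seen: 1% of a cell's UMIs for 4 class II genes (*H2-Aa*, *H2-Ab1*, *H2-Eb1* and *Cd74*) and 0.3% for the 3 C1q genes. The 39 epithelium-rich cells were kept apart. The resulting ranges are stretches of a score and not cell types, and 25 cells lay within 1.5 times of the first border and 23 of the second. Within 1.5 times of the 3% epithelium border lay 53 cells, more than the border sets apart. There were 108 MHC II-high cells low for C1q (30.5%), 61 cells high for both (17.2%), 117 cells low for both (33.1%) and 29 cells high for C1q only (8.19%). In cluster 15, 21.9% of cells reached the class II border and 39.8% the C1q border, in comparison with 49.7% and 27.1% of cluster 14. In cluster 13, 0 of 710 cells reached either, which allows a share of up to 0.423%.

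**Figure D3:**
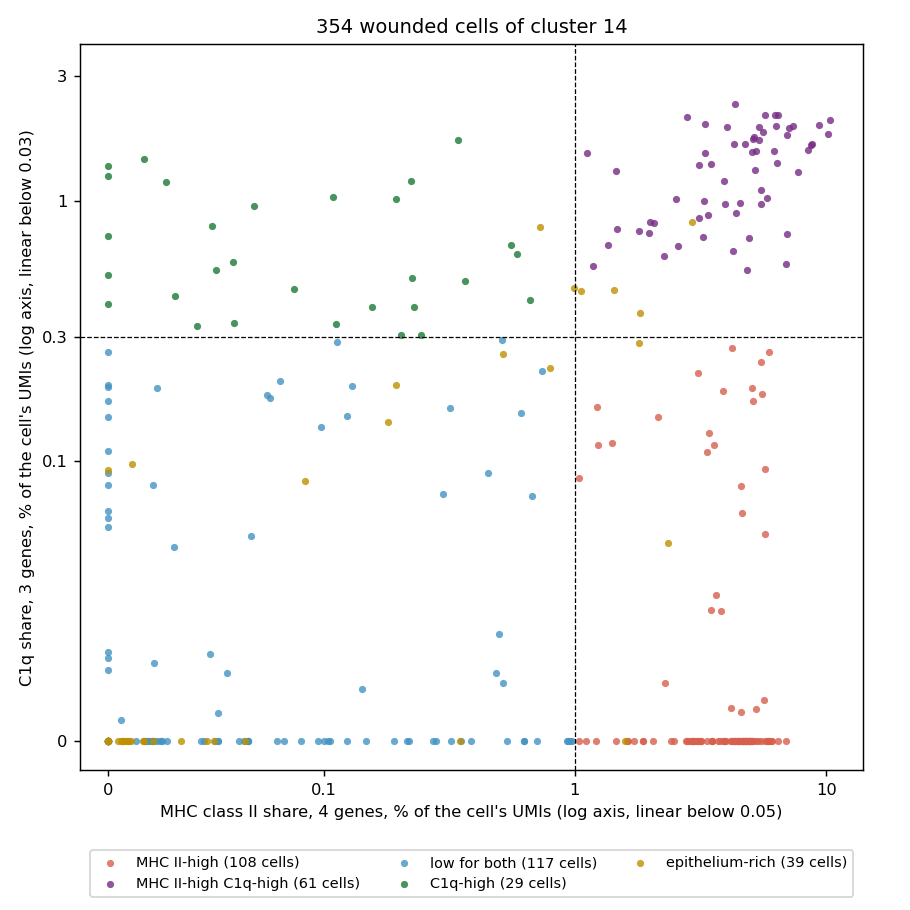
Each point is 1 of the 354 W cells of cluster 14, by the share of 4 MHC class II genes and of 3 C1q genes among its UMIs (percent, log axes that are linear near 0). Dashed lines mark the borders of 1% and 0.3%, and colours the ranges, with 108 MHC II-high cells at the lower right and 61 cells high for both at the upper right.

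The MHC II-high cells with little C1q carried most of the UMIs of several dendritic cell genes and of the natural killer cell gene *Klrd1*, but none of *Cd207*. They held 265 of the 284 UMIs of *Cd209a*, 297 of the 423 of *Ccr7*, 314 of the 331 of *Klrd1* and 68 of the 79 of *Flt3*. *Klrd1* was found in 61 of these 108 cells, *Mgl2* in 45, *Cd209a* in 37, *Flt3* in 36, *Ccr7* in 25, *Clec9a* in 12 and *Xcr1* in 7. *Ly6c2* stood at 296 CPM and *Ccr2* at 202 CPM in them, each the highest of the ranges, and *Adgre1* at 20.1 CPM. *Cst3*, the protease inhibitor cystatin C that dendritic cells make in quantity, stood at 8109 CPM, against 1559 in the cells low for both.

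The cells high for class II and C1q were a different set of levels. *Adgre1* stood at 248 CPM, *Csf1r* at 324, *Apoe* at 8046 and *Ccl4* at 9057 CPM, and *Il1b* at 2446 CPM, whereas *Ly6c2* stood at 1.84 CPM. They held 327 of the 417 UMIs of *Zmynd15* and 65 of the 70 of *Cd207*, the latter in 18 of 61 cells. *Cd207* was at 0 UMIs in the 108 MHC II-high cells low for C1q. Their *Arg1* level was 9.20 CPM.

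In the cells low for both, *Lyz2* stood at 12956 CPM, against 3027 in the MHC II-high cells, a log2 ratio of MHC II-high over low cells of -2.10 (-2.15 to -2.05). They held 669 of the 925 *Arg1* UMIs, in 66 of 117 cells, at 667 CPM. The epithelium-rich cells held 214 more, in 25 of 39 cells, at 292 CPM. *Spp1* stood at 4242 CPM, *Ccl2* at 3112, *Thbs1* at 1154 and *Pf4* at 1018 CPM, all but *Thbs1* still below cluster 15 as a whole. *Fcgr1* stood at 239 CPM, against 648 in cluster 15, whereas *Csf1r* and *Adgre1* stood at 77.8 and 109 CPM, below the 324 and 248 CPM of the cells high for both. Of these 117 cells, 29 had fewer than 2000 UMIs. The 29 cells high for C1q only had 15824 CPM of *Apoe*, 566 of *Ms4a7*, 107 of *Fcrls* and 138 of *Osm*, and rest on 159058 UMIs in all.

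**Figure D4:**
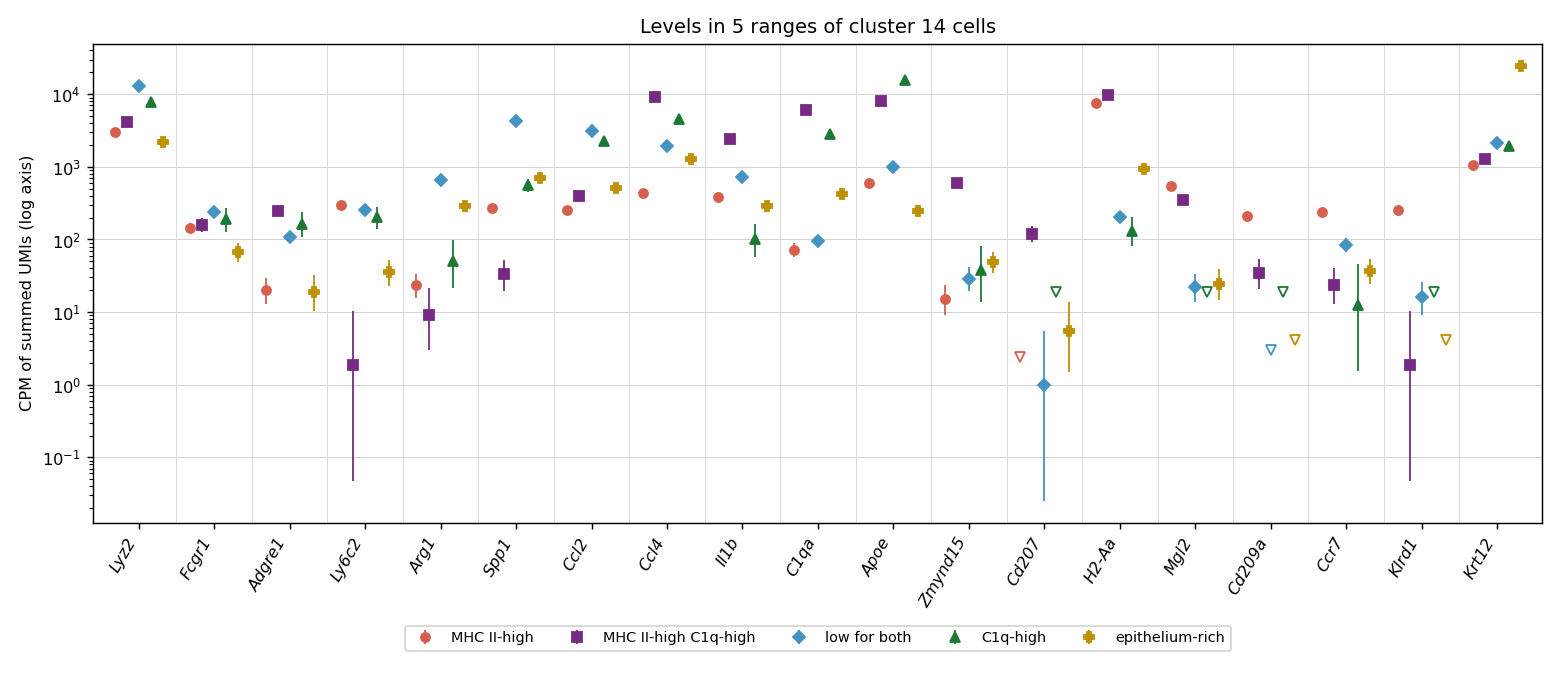
Level of 19 genes in CPM on a log axis in the 5 ranges of cluster 14 cells, with exact Poisson 95% intervals. Open triangles mark sums of 0 at the level of 3 counts. *Arg1* and *Spp1* are highest in cells low for both shares (667 and 4242 CPM), *Cd209a*, *Ccr7* and *Klrd1* in MHC II-high cells, and *Zmynd15* and *Cd207* in cells high for both.

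Depth varied with the ranges. The 58 cells of the cluster under 2000 UMIs had 13216 CPM of *Gm42418* and 4183 of *AY036118*, transcripts that overlap ribosomal RNA, against 4851 and 675 CPM in the other 296 cells, and a median epithelium share of 2.31% against 0.545%. Their *Cd74* level was 2316 CPM against 10341. The part of low depth in the range low for both was not tested.

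The study named subsets of its Monos and Macs by *Arg1*, *Ccr2* and *Fcrls*, and the comparison asks how these genes were spread over the cells of cluster 14. *Arg1*, the arginase of wound macrophages, stood at 251 CPM in cluster 14 (235 to 268), 26.7 in cluster 13, 1333 in cluster 15 and 26.0 in cluster 16. An *Arg1* UMI was found in 56 of 296 thinned cells (18.9%, 14.6 to 23.9), in 57.8% of cluster 15 (51.4 to 64.0), and in 5.14% and 4.39% of clusters 13 and 16. The share in cluster 14 thus lay above those of clusters 13 and 16 and below that of cluster 15. Without thinning it was 33.1%. With thinning but without the epithelium-rich cells it was 16.4% (44 of 268 cells). *Ccr2* was found in 18.6% of thinned cells (55 cells) and *Fcrls* in 2.36% (7 cells). *Arg1* and *Ccr2* were found together in 8 cells, and *Arg1* and *Fcrls* in 0 of 296, which allows a share of up to 1.01%. With 7 *Fcrls* cells in all, nothing is read from that 0.

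Cells with an *Arg1* UMI held little class II and C1q RNA. The 4 class II genes summed to 4705 CPM in the 56 cells with *Arg1* and 29381 CPM in the 240 without, a log2 ratio of -2.64 (-2.77 to -2.52), and the C1q genes had a log2 ratio of -2.82 (-3.20 to -2.46). *Spp1* was higher beside *Arg1* (4071 and 1013 CPM, log2 ratio 2.01), as were *Fn1* (1.96), *Thbs1* (1.42) and *Lyz2* (1.07). *Osm* stood at 62.5 and 64.6 CPM, a log2 ratio of -0.05 with an interval of -1.48 to 1.16 on 7 and 31 UMIs, so no difference was detectable at this depth. *Fcgr1* had an interval that included 0, and so did *Ccr2* (-0.84, -2.03 to 0.17), whose ratio without thinning was -1.53 (-1.89 to -1.19). Some of these ratios depended on the random draw of UMIs. With another draw *Spp1* had a log2 ratio of 0.98 and C1q one of -2.07, in the same directions. The epithelium markers were higher beside *Arg1* as well (log2 ratio 0.93), and without the epithelium-rich cells the class II ratio was -2.61.

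**Figure D5:**
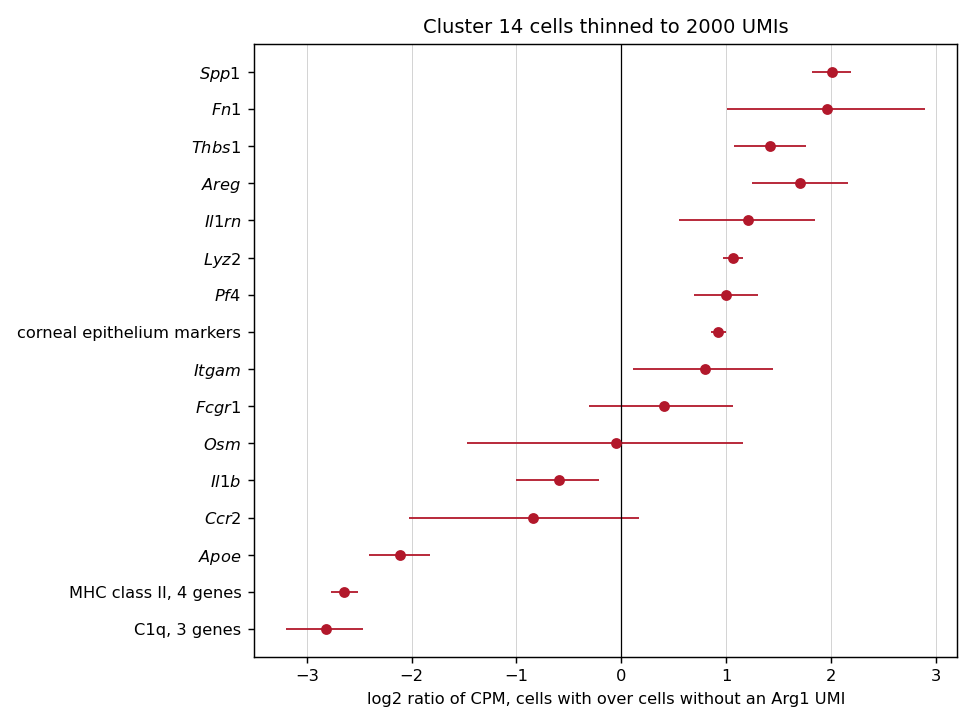
Log2 ratio of CPM between the 56 cells with and the 240 cells without an *Arg1* UMI in cluster 14, after thinning to 2000 UMIs, with 95% intervals from the counts. *Spp1*, *Fn1*, *Thbs1* and *Areg* lie to the right of 0, class II, C1q and *Apoe* to the left, and *Osm*, *Fcgr1* and *Ccr2* have intervals that include 0.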

How the data were processed

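The authors made the UMI counts with Cell Ranger 3.1.0, and the table was deposited without normalization. The methods name mm10 and the labels mm9, which was not settled here. Clusters (Seurat) and doublet calls (DoubletFinder) are the authors' own. Cells that a deposited doublet column still names were kept, 0 in cluster 14 and 2 in cluster 15. All cells of cluster 14 had 564 genes or more and at most 9.75% mitochondrial UMIs. The samples were grouped by the treatment in their labels.

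Counts were summed per cluster in Python 3.11.15 (numpy 2.4.6, scipy 1.17.1, pandas 2.3.3) and scaled to CPM, and a sum of 0 was set to 3 counts in ratios. That setting turned the direction of 9 of the 331 genes called lower and 3 of the 756 called higher against cluster 15, none of them in a list count printed for that cluster. Genes with a mean of 10 CPM over the 4 clusters were tested against a border of 1 on the log2 scale, in either direction. There is no p-value, since cells are not replicates. The calculations were tested on simulated data. Other scalings came from edgeR 4.0.16 and DESeq2 1.42.0. Cluster sums ranged from 1039178 to 3685093 UMIs, which sets the width of each interval.

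The members, the 25 gene lists and the rule for naming genes were chosen with earlier results of these data known. Named genes are those of the lists, the 10 with the largest ratio over the other clusters or at either end against cluster 15 (at least 100 CPM), the 10 most variable and the 10 at each end of the first component. Mitochondrial, haemoglobin and ribosomal protein genes were left out. *Gm42418* and *AY036118* were chosen after their values were seen. The results of 1 gene of the lists are not reported here.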

Additional observations from a re-analysis of the deposited data

How the results depend on the processing

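A stricter filter on cells, of 1000 genes and 5% mitochondrial UMIs, gave cluster 14 a share of 2.47% of W cells. The number of genes higher than in cluster 13 was 794 with DESeq2 size factors, and the median log2 ratio of all genes moved from 0.30 to 0.05 there, and against cluster 16 from -0.14 to 0.20 with TMM factors. With a mean of at least 50 CPM the numbers higher than in clusters 13, 15 and 16 were 334, 210 and 482, and with no filter 2432, 2662 and 1839, since fewer or more genes were tested. With no filter 3618, 2245 and 4794 genes were lower, so that 40.2%, 54.2% and 27.7% of the genes past 2-fold were higher. Without the epithelium-rich cells, chosen after seeing the data, 471 genes were higher than in cluster 15. The share of cells with an *Arg1* UMI was 33.1% unthinned, 14.1% at 1000 UMIs and 24.7% at 4000 UMIs. The class II ratio between cells with and without *Arg1* was -2.12 unthinned, -1.83 at 4000 UMIs, -2.50 with another seed and -3.79 for cells with at least 2 *Arg1* UMIs, lower beside *Arg1* in each.

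Among 38 genes followed under 10 alternatives, no called ratio over cluster 15 changed sign, but among others *Areg*, *Hbegf*, *Krt12*, *Clic3*, *Prdm1*, *Osm* and *Cxcl2* lay under 2-fold in at least 1, and *Klf4* passed it in 1. No paired analysis was possible because each condition had 1 library. Depth limits genes of a few CPM and all genes in the 7 UW cells.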
